A study of Arabidopsis thaliana with 6 samples.

Results

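Flavonoids are phenolic compounds built from phenylalanine, and the genes described here encode the enzymes of their synthesis in Arabidopsis thaliana together with 1 transcription factor. The members were fixed by locus: CHS, CHI, F3H, F3'H, FLS1, DFR, MYB12 and UGT78D2. Of these 8 loci, 7 have a row among the 20423 genes of the deposited table, and DFR has none and was not analysed here. The roots came from Col-0 wild type seedlings 3 days after germination. They were kept for 6 h in liquid half-strength medium that contained the natural auxin IAA (indole-3-acetic acid) at 1 µM, or for 6 h in the same medium without it (control). By the labels, 3 libraries were made per group from about 100 roots per replicate, and RNA was depleted of ribosomal RNA before sequencing. Values are the authors' mean read counts per group, scaled for depth, here called normalized reads. They carry no SD, because no value per library was available, and no test between the groups could be run.

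Chalcone synthase (CHS) joins a phenylpropanoid unit with malonyl units, the first committed step of the pathway, and chalcone isomerase (CHI) closes the ring. Flavanone 3-hydroxylase (F3H) and flavonoid 3'-hydroxylase (F3'H) add hydroxyl groups. Flavonol synthase 1 (FLS1) makes the flavonols kaempferol and quercetin, and UGT78D2 attaches glucose to them. Dihydroflavonol reductase (DFR) leads away from flavonols to anthocyanins and the tannins of the seed coat. MYB12 is an R2R3-MYB transcription factor that activates the early genes of flavonol synthesis, mainly in the root. Flavonols are known as inhibitors of auxin movement between cells.

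The members lie apart from each other on 3 chromosomes of the TAIR10.1 annotation. CHS (AT5G13930, also TT4) is on chromosome 5 from 4488476 to 4490264 on the plus strand, and F3'H (AT5G07990, TT7), FLS1 (AT5G08640) and UGT78D2 (AT5G17050) are on the same chromosome at 2560328 to 2563137, 2803833 to 2805606 and 5607788 to 5609589. CHI (AT3G55120, TT5) is on chromosome 3 from 20430059 to 20431597, and F3H (AT3G51240) on the same chromosome from 19025192 to 19026872. MYB12 (AT2G47460) is on chromosome 2 from 19476326 to 19479597. CHI and UGT78D2 are on the minus strand and the other measured members on the plus strand.

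A feature that the rule did not use is the sequence around the start of transcription. The G-box (CACGTG, the same on both strands) binds bZIP and bHLH factors, HY5 among them, and its core is ACGT, so that each G-box also counts as an ACGT match. In the window from 250 bases before to 50 bases after the annotated start, 5 of the 8 loci (CHS, CHI, F3H, DFR and MYB12) held a G-box, against 7.68% of 27443 promoters of the same length. For ACGT it was 6 of 8 loci, the same 5 and FLS1, against 49.9% of promoters. The match of FLS1 lies at position 30 after the start. Searched on both strands, ACCAACC, an element bound by MYB factors, was found in 1 of the 8 (DFR), against 3.29% of promoters. The like elements ACCTACC and ACCTAAC were found in 0 of 8 (1.38% and 2.88% of promoters), shares so low that 0 of 8 says little. The auxin response elements TGTCTC and TGTCGG were also found in 0 of 8 (14.2% and 5.12% of promoters). For all of these, 0 says only that the letters are not in this window.

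The 250 bases before the start are shown 5′ to 3′ for the 3 measured members whose G-box lies before the start and, for contrast, for UGT78D2, which has none of these motifs in the window. Capitals mark CACGTG and ACGT. The regions are chr5:4488226-4488475 for CHS, chr3:19024942-19025191 for F3H and chr2:19476076-19476325 for MYB12, all on the plus strand, and chr5:5609590-5609839 on the minus strand for UGT78D2, read from the RefSeq copy of TAIR10.1.
CHS: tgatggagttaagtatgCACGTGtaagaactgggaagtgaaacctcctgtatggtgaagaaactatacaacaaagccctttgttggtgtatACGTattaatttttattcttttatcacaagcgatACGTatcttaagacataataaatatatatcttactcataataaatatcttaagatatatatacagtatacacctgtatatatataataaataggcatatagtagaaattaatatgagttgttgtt
F3H: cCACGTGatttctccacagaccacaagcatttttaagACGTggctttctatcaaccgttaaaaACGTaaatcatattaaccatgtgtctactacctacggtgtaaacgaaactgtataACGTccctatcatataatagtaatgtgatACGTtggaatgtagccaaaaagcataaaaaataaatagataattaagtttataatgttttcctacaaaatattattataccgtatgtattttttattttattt
MYB12: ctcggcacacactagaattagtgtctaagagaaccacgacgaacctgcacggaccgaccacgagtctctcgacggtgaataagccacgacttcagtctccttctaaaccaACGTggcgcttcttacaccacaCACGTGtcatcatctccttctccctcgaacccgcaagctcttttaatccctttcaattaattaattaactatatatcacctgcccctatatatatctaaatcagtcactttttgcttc
UGT78D2: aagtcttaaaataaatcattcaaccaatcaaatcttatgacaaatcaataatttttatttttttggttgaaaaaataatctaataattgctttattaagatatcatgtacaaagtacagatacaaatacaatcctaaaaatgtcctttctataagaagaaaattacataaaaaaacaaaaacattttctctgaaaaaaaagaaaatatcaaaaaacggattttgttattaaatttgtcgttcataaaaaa
The G-box starts at position -233 from the start in CHS, -249 in F3H and -118 in MYB12. That of CHI starts 40 bases after the start, within the transcript, and is not shown. These matches describe the sequence, and their part in the levels below was not tested.

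All 7 measured members were lower in IAA-treated roots than in control roots. Each was past 2-fold, as were 10.3% of the 11139 genes whose means averaged at least 10, the minimum used for counts and medians of differences. In the other direction it was 0 of 7 members, against 12.2% of genes. The median log2 difference of the members, with 1 added to each mean, was -2.23, against -0.01 over those genes. The 95% counting interval of the ratio of the means, which covers the chance of counting reads and not the variation between libraries, lay below 1 for 7 of 7 members. It lay below 1 for 24.2% of the genes and above 1 for 24.7%, so that it says little about a gene by itself. In bulk roots, fewer cells that transcribe a gene and less RNA per cell cannot be told apart.

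**Figure D1:**
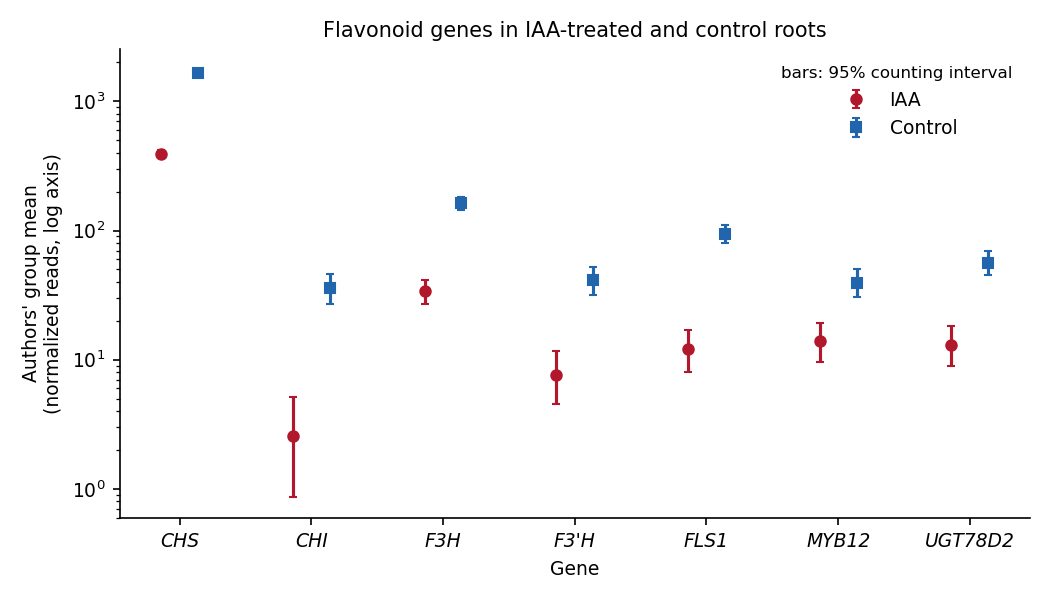
Authors' mean of each measured member in IAA-treated roots (red circles) and control roots (blue squares), in normalized reads on a log axis. Bars are 95% counting intervals of each mean, without the variation between libraries. In each of the 7 genes the IAA mean lies below the control mean, from 2.55 against 35.67 for CHI to 394.35 against 1667.16 for CHS.

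CHS was by far the most abundant member. Its mean was 394.35 normalized reads after IAA, against 1667.16 in control. This is 4.23 times lower (counting interval 3.93 to 4.55), or -2.08 on the log2 scale. Of the 11139 genes, 2.47% had a lower log2 difference. CHS gave 82.6% of the summed means of the members after IAA and 79.5% in control, so the sum over members, 477.21 after IAA and 2095.92 in control, describes mostly CHS.

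CHI, the next enzyme, had the lowest ratio of the members. Its mean was 2.55 after IAA, from 6 reads, and 35.67 in control, from about 58 reads. The control mean was 13.99 times the IAA mean, with a wide counting interval of 6.46 to 42.4 times. Its log2 difference of -3.37 is pulled towards 0 by the added 1, since the IAA mean is so low, and 0.395% of genes had a lower one.

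Both hydroxylases took intermediate places among the members. F3H had means of 33.73 after IAA and 162.42 in control, 4.82 times lower (3.76 to 6.22). F3'H had 7.67 after IAA and 41.19 in control, 5.37 times lower (3.23 to 9.60). Their log2 differences were -2.23 and -2.28. For F3H there is a limit in the annotation: AT3G51238, a noncoding RNA on the opposite strand, covers 1588 bases (94.5%) of the gene and reaches into the region printed above. It has no row in the table. Whether counting used strand is not given in the sources used here, so reads of F3H and of this antisense RNA cannot be told apart. CHS shares 2 bases with its neighbour, and the other 5 measured members overlap no annotated gene.

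FLS1, at the branch to flavonols, had the second lowest ratio. Its mean was 11.99 after IAA and 93.54 in control, 7.80 times lower (5.30 to 12.1) and -2.86 on the log2 scale. A lower log2 difference was found for 0.826% of genes. UGT78D2, which acts after it, had means of 13.04 and 56.47, IAA against control, 4.33 times lower (2.86 to 6.62) and -2.03 on the log2 scale.

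MYB12, the regulator, differed least. Its mean was 13.88 after IAA and 39.47 in control, 2.84 times lower (1.87 to 4.46), or -1.44 on the log2 scale. It is the only member whose counting interval reaches to less than 2-fold. Of the 21 pairs of members, 5 had counting intervals of the ratio that did not overlap. CHI was below CHS, F3H and MYB12, and FLS1 was below CHS and MYB12. For the other 16 pairs the intervals overlapped, which by itself does not settle whether their order is beyond counting error. In 60-base windows, the read length of the study, 0 of the exon sequences of the 7 measured members occur elsewhere in the genome, so reads of close relatives were not shared at that length without mismatches.

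**Figure D2:**
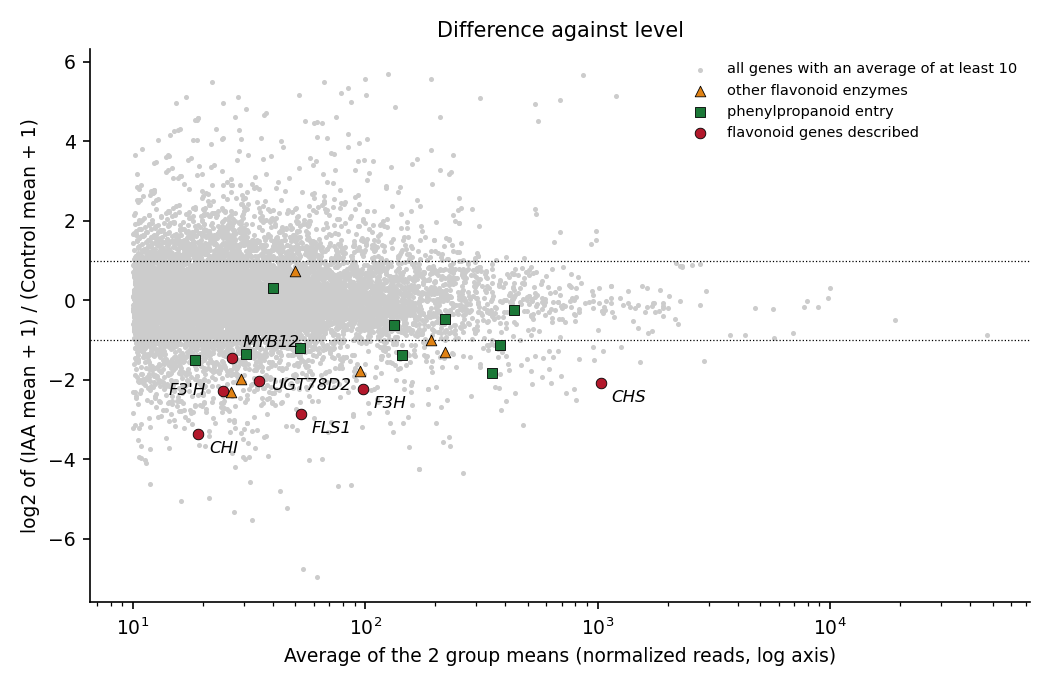
Log2 of the IAA mean over the control mean, with 1 added to each, against the average of both group means in normalized reads (log axis), for the 11139 genes with an average of at least 10. Red circles are the measured members, orange triangles other flavonoid enzymes, green squares enzymes of the phenylpropanoid entry, and dotted lines 2-fold. The members lie between -3.37 and -1.44, from low averages to CHS at the right.

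Log2 differences of -2 or less, reached by every measured member but MYB12, were about as rare among low genes as among abundant ones. Of 3657 genes with an average between 10 and 20, where CHI lies, 3.36% had a log2 difference of -2 or less, and of 183 genes at 500 or more, where CHS lies, it was 3.28%. Between 50 and 100 it was 2.03% of 1872 genes.

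The order of levels among the members was taken per kb of the longest annotated transcript. In IAA-treated roots the order was CHS (232 normalized reads per kb), F3H (22.4), MYB12 (8.77), UGT78D2 (8.05), FLS1 (7.92), F3'H (3.98) and CHI (2.29). From MYB12 down, each gene's counting interval met that of the next. In control roots the order was CHS (979), F3H (108), FLS1 (61.8), UGT78D2 (34.9), CHI (32.1), MYB12 (24.9) and F3'H (21.4), and from UGT78D2 down the intervals of neighbours met. CHS and F3H thus led in both groups, while FLS1 stood clear of the genes below it only in control roots. In control, 33 genes had a higher value per kb than CHS, and after IAA 227 did.

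The low means show that each is a sum over 2 sets of reads. Every mean under 45 was a sum of whole multiples of 2 steps (0.366501 and 0.425561 after IAA, 0.589163 and 0.634408 in control), with 0 of 15759 IAA means and 0 of 15580 control means off these sums. The labels name 3 libraries per group, and which libraries the sets are was not given, so the sets are called first and second. For 5 members 1 whole-number solution exists in the IAA group. If each mean is over 2 libraries, CHI had 0 reads in the first set, which allows a value of up to 2.20 normalized reads (3 reads), and 6 in the second (5.11). F3'H had 5.13 and 10.2 normalized reads, and FLS1 had 4.40 and 19.6. MYB12 had 7.33 and 20.4, and UGT78D2 12.5 and 13.6. The second IAA set was the higher in 5 of 5 members.

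The sets differed more in some members than in most genes of that level. Over 3470 genes with IAA means from 7 to 14, the log2 ratio of the second set to the first, with 1 added to each, ran from -1.07 to 1.11 between the 10th and 90th percentiles, and 50.5% had the second set higher. It was 1.93 in FLS1, 1.36 in MYB12, 0.87 in F3'H and 0.12 in UGT78D2, and 1.73%, 6.31%, 15.5% and 43.8% of those genes had a larger one. CHI, whose mean is below that range, had 2.61.

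In control several solutions fit, from 3 for CHI to 454 for CHS, so the control sets are known only as a range. Both IAA sets lay below both control sets in 3 of 3 combinations for CHI, whose lowest possible control set was 8.88 normalized reads. For the others it was 6 of 7 for UGT78D2, 8 of 9 for FLS1, 4 of 5 for F3'H, 2 of 5 for MYB12, 28 of 40 for F3H and 10978 of 22700 for CHS, where the reads are too many to solve. Thus only CHI was apart in every solution, 1 of 7 members, against 2.1% of genes lower and 6.67% higher by this rule. Solutions were counted alike, however unevenly they split the reads, so these counts are not probabilities. For MYB12, most solutions let the sets of both groups overlap. Those were the most uneven control splits (11 and 52, 53 and 13, and 67 and 0 reads), and the more even ones (25 and 39, 39 and 26) lay apart.

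**Figure D3:**
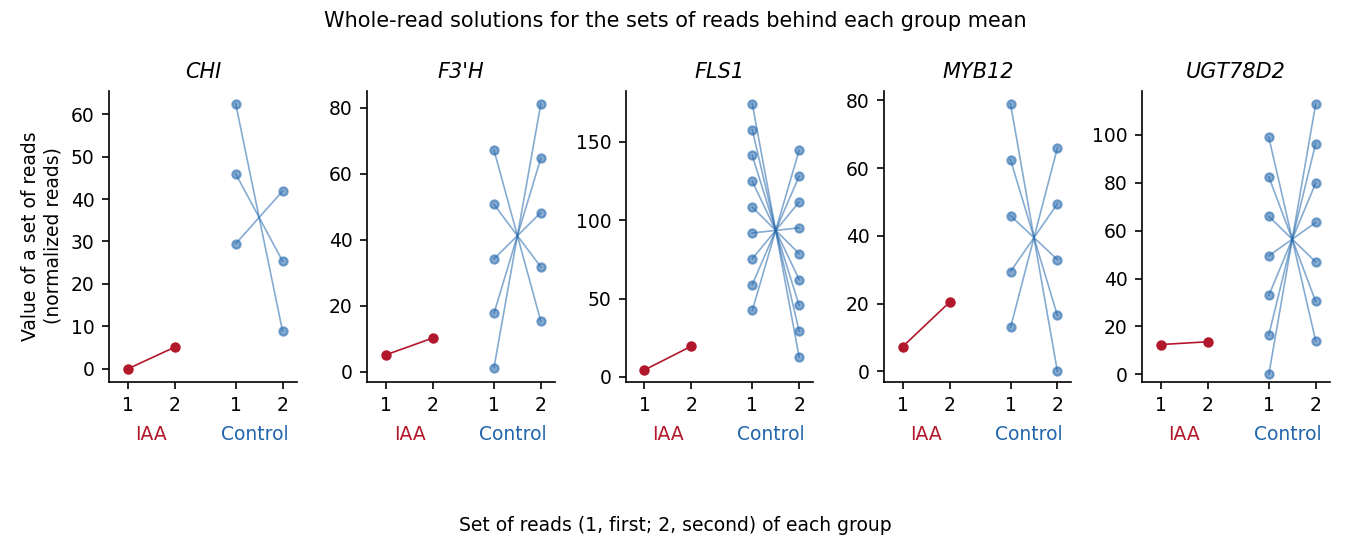
Values of both sets of reads of each group (1, first; 2, second) in normalized reads on linear axes, for the 5 members with a single IAA solution (red); blue lines join the sets of each possible control solution. The IAA sets of CHI (0 and 5.11) lie below every control value, while for the other 4 genes at least 1 control solution has a set that is not above both IAA sets.

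Other enzymes of the flavonoid pathway were fewer in the data. Of 22 listed, 12 had a row and 6 reached the minimum; 4 of these 6 were past 2-fold lower and 0 higher, with a median log2 difference of -1.54. UGT89C1, which adds rhamnose to flavonols, had means of 8.17 after IAA and 44.5 in control (log2 difference -2.31), and is covered almost fully by a noncoding RNA on the opposite strand (99.6% of its length). CHIL, a relative of CHI that enhances flavonoid synthesis, had 11.27 and 47.09, IAA against control (-1.97), and both its IAA sets lay below both control sets in every solution. OMT1, a methyltransferase of flavonols and lignin precursors, had 42.36 after IAA and 147.92 in control (-1.78). RHM1, which makes the rhamnose donor, had 125.65 and 312.42 (-1.31); it and the FLS relatives below were named after their values were seen.

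The relatives of FLS1 in the same family differed among themselves. FLS3 had means of 62.58 after IAA and 37.3 in control, a ratio of 1.68 (1.24 to 2.29). FLS5 had 127.33 and 254.41, IAA against control, with an interval of the ratio from 0.432 to 0.581, and for FLS1 the ratio was 0.128 (0.0828 to 0.189). The counting intervals of FLS3 and FLS5 overlap neither each other nor that of FLS1. FLS4, below the minimum, had 0.85 after IAA and 8.52 in control, a ratio of 0.0998 whose interval (0.0102 to 0.403) holds the ratio of FLS1. The nearest relatives of UGT78D2 were too low to count: UGT78D1 had 3.72 and 12.78, UGT78D4 4.5 and 11.51, and UGT78D3 0 and 2.36, IAA against control each time. Genes of the later branch (LDOX and BAN) had no row, like DFR.

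The list for the entry into the pathway, up to the substrates of CHS, was lower by a smaller margin. Of its 10 genes at the minimum, 6 were past 2-fold lower and 0 higher, with a median of -1.17. The list is wider than the steps from phenylalanine. It includes the reductases ATR1 (-0.47) and ATR2 (-0.61) and the carboxylase ACC1 (-0.23), none of them past 2-fold. PAL1, a phenylalanine ammonia-lyase, had means of 154.45 after IAA and 546.94 in control (-1.82), and PAL2 had 80.15 and 207.51 (-1.36). Other PAL genes were not lower. PAL4 had 44.5 after IAA and 35.53 in control (0.32), and the counting interval of its ratio (0.902 to 1.75) holds 1. PAL3, below the minimum, had 3.36 after IAA, from about 8 reads, and 0 in control. C4H, the hydroxylase after PAL, had 237.49 after IAA and 520.38 in control (-1.13). Of the 4-coumarate ligases, 4CL1 (31.45 and 73.64), 4CL2 (16.88 and 44.32) and 4CL5 (9.27 and 27.83) were past 2-fold lower after IAA than in control. 4CL3, below the minimum, had 4.26 after IAA and 10.74 in control, a ratio of 0.397 (counting interval 0.169 to 0.884).

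The branches that compete for the same substrates, lignin and coumarins, were closer to the other genes. Of 8 genes, 1 was past 2-fold lower and 0 higher, with a median of -0.35. That gene was C3'H, a hydroxylase on the way to lignin, with 34.06 after IAA and 113.84 in control (-1.71). F6'H1, the coumarin enzyme, had 60.88 and 37.75, IAA against control (0.68). Of 3 transport genes at the minimum, DTX35, a flavonoid transporter of the vacuole, had 77.98 after IAA and 191.92 in control (-1.29). The vacuolar pump ABCC2 went the other way, with 340.94 after IAA and 115.97 in control (1.55).

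**Figure D4:**
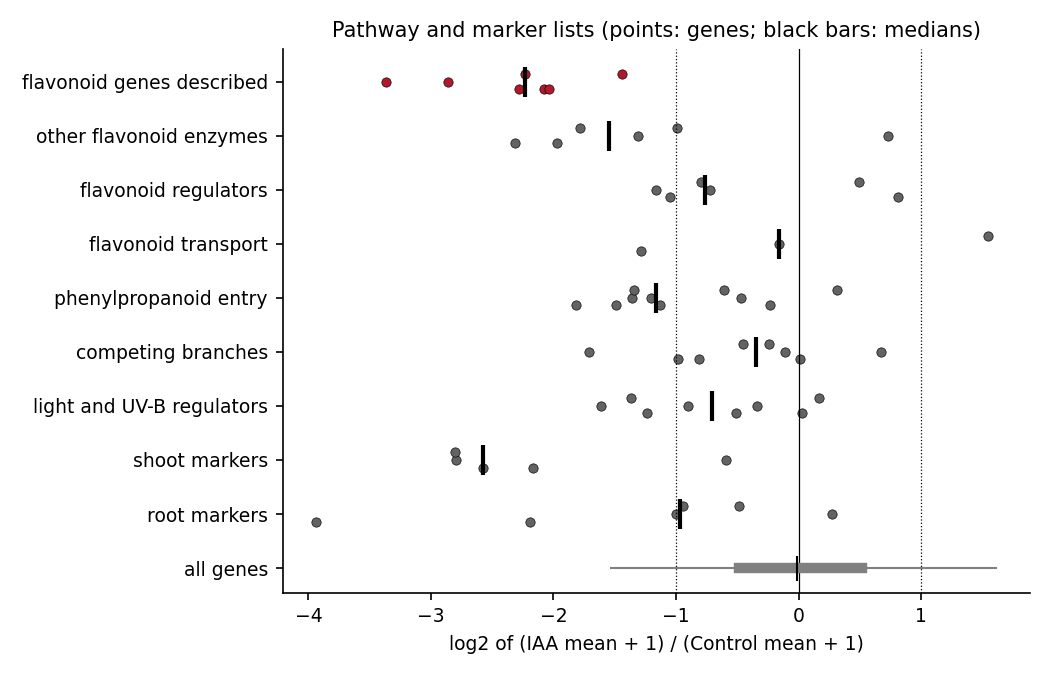
Log2 of the IAA mean over the control mean, with 1 added to each, for the genes of each list with an average of at least 10; points are genes, black bars medians. The grey bars give all 11139 genes (thick, 25th to 75th percentile; thin, 5th to 95th), and dotted lines mark 2-fold. Medians are -2.23 for the members, -1.54 for other flavonoid enzymes, -1.17 for the phenylpropanoid entry and -2.58 for the shoot markers.

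Several known activators of the pathway had no values. MYB11 and MYB111, its closest relatives, and TT2, TT8, PAP1 and PAP2, which act on the later genes, had no row. Of 6 other regulators at the minimum, 2 were past 2-fold lower and 0 higher, with a median of -0.76. Both are known as repressors: MYB4 had means of 17.78 after IAA and 41.1 in control (-1.16), and LBD37 had 23.73 and 50.08 (-1.05). TTG1, GL3 and EGL3, which act with MYB factors on the later genes, were named after their values were seen. TTG1 had 23.51 after IAA and 13.01 in control, a ratio of 1.81 (1.09 to 3.15) and so above 1 but under 2-fold. EGL3 (10.55 and 5.48) and GL3 (0.79 and 4.85, IAA against control) were below the minimum. In the list of light and UV-B genes, which are not all regulators, it was 3 of 8 lower and 0 higher, with a median of -0.70. HY5, a bZIP factor that activates CHS in light, had 20.59 after IAA and 49.76 in control (-1.23), and BBX21, its partner, had 41.89 and 109.8 (-1.37). ELIP1, a light-induced plastid protein and no regulator, had 5.91 and 20.12, IAA against control (-1.61), and is among the 3 lower.

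The response to auxin itself was plain: 4 of 4 early auxin genes were higher, GH3.3, which conjugates auxin, with a mean of 1698.18 after IAA and 32.49 in control. Markers of green tissue were also lower after IAA. The 12 shoot markers all had a row and summed to 83.53 after IAA and 273.19 in control, a ratio of 0.306, against 0.228 for the summed members. PSBO1, of photosystem II, gave most of the IAA sum, and without it the other 11 summed to 27.42 and 188.17, IAA against control, a ratio of 0.146, below that of the members. Of the 5 at the minimum, 4 were past 2-fold lower, 0 were higher and the median was -2.58. LHCB1.3, a light-harvesting protein, had 3.77 after IAA and 32.36 in control, LHCB4.1 had 6.72 and 33.72, and PSBO1 56.11 and 85.02. The second IAA set was the higher in 9 of the 11 that could be solved (sums of 19.1 in the first and 35.7 in the second set). Most of these rest on few reads. LHCB4.1 (16 reads in the first and 2 in the second set) and LHCA1 (3 and 2) went the other way. Among other flavonoid enzymes the second set was the higher in 3 of 7 (29.3 and 31.5) and in the phenylpropanoid entry in 1 of 4 (35.2 and 32.3). It was so in 6 of 8 genes of the light and UV-B list, ELIP1 and ELIP2 included (77.0 and 108). For flavonoid regulators it was 4 of 7 (52.8 and 63.8) and for root markers 4 of 7 (66.0 and 64.7). Lists with 1 solved gene are left out. The 5 seed markers had no row, and PYK10, a glucosidase abundant in roots, led the root markers with 3934.62 and 7558.4, IAA against control. The part of green tissue in the lower flavonoid values was not tested.

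Depth sets a lower limit to the error of these values. The means summed to 873654 normalized reads after IAA and 919275 in control, and the steps put about 2.21e+06 and 1.50e+06 counted reads behind them. The 6 members other than CHS together had 208 reads in the IAA group.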

How the data were processed

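Root RNA of both groups was sequenced by SOLiD technology. Going by the study's methods and the submitters' processing notes, the authors mapped reads to TAIR10 with SHRiMP, counted uniquely mapped reads per gene with HTSeq and compared groups with DESeq. The deposited table gives 1 signal value per gene and group, the mean read count divided by size factors. It also holds the authors' fold changes and p-values, which were not used. Only both group means were used here, so SD, tests and values per library are lacking and a fixed 2-fold stands in for a call.

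Log2 differences are of IAA over control with 1 added to each mean. Genes with an average under 10 were left out of counts, shares and medians of differences. Sums over lists, ranks per kb and the spread between sets did not use this minimum. Reads were recovered from 2 steps per group in the low means, a choice made after seeing the data. They gave 95% counting intervals (exact binomial, Clopper-Pearson, conditional on the reads of both groups), which cover counting error only; amplified reads are not independent molecules. A gene was called apart by sets when both IAA sets lay on 1 side of both control sets in every whole-number solution. The recovery of steps and reads and the counting intervals were tested on simulated data with 2 sets of reads per group and counting error only. The number of sets and the variation between libraries were therefore not tested. IDs were paired by locus with the RefSeq annotation of TAIR10.1 (20192 of 20423), which gave positions, transcript lengths and sequences, since the table holds none.

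The members and gene lists were chosen with earlier results of these data known. Named from the other lists were the genes with the 3 largest differences past 2-fold in each direction, any gene of lists of up to 12 genes, and relatives of members that could share reads. The DESeq test could not be repeated without values per library. Alternatives were other added values, scalings, minima, folds and interval levels. Scripts ran in Python 3.11.15 with scipy 1.17.1, pandas 2.3.3 and numpy 2.4.6, and matplotlib 3.10.9 drew the plots.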

Additional observations from a re-analysis of the deposited data

How the results depend on the processing

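All 7 measured members were lower under each of the 35 alternatives for their log2 differences (other added values, equal sums, centring on the median). These ran from -3.81 to -2.43 for CHI, from -2.96 to -2.54 for FLS1 and from -1.51 to -1.24 for MYB12. With 5 added to each mean, FLS1 (-2.54) was lower than CHI (-2.43), so which member is lowest depends on the added value. Scaling to equal sums put the median of all genes at 0.06 in place of -0.01. With a minimum average of 50, 3 members reached the minimum and were past 2-fold lower, and with both sets of reads apart in every solution, a rule chosen after seeing the data, 1. The count of genes lower (1146) became 2796 with no minimum, 310 with a minimum of 50, 2331 at 1.5-fold, 521 at 3-fold and 234 by sets apart. The count of genes higher (1364) became 3035, 378, 2546, 587 and 743 under the same settings. Of 129 alternatives in all, 117 stayed close to their main value and 0 reversed. A log2 difference was close if it shifted by less than its counting interval reaches, on average, to each side. That reach is wide for CHI. For a median the typical reach of its genes was used. A count was close if equal or within 1.5 times, and a count could not be called reversed. No paired analysis was possible because the table holds only group means, and for the same reason no library could be left out. The few reads after IAA, 6 for CHI and 19 for F3'H, limit the sizes given, and variation between libraries is not covered.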

Other observations

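Some genes that mark root cell types were also lower, and give values beside those of the flavonoid genes. COBL9, a gene of root hair growth, had a mean of 0.43 after IAA, from 1 read, and 20.85 in control, a ratio of 0.0206 (counting interval 0.000468 to 0.113), and its sets lay apart in every solution. CASP1, which builds the Casparian strip of the endodermis, had 12.32 after IAA and 59.82 in control (log2 difference -2.19). SCR, an endodermal regulator, had 37.56 and 30.95, IAA against control (0.27). Of the 6 root markers with an average of at least 10, 3 were past 2-fold lower and 0 higher, with a median of -0.97. WOX5, of the stem cell niche, had 15.3 and 3.67, and SMB, of the root cap, 14.75 and 2.45, IAA against control, both below the minimum.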
